A study of Mus musculus with 65 samples.

Results

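The sites described here are the autosomal SYCP3 peaks that were called in testes of Iho1KO mice and in none of the other genotypes. A peak was kept if it lay on chromosomes 1 to 19 and shared no base with the SYCP3 lists of 5 other genotypes, with the wild-type HORMAD1 and IHO1 lists, with the wild-type CTCF list or with the wild-type DMC1 hotspots. Of 5309 autosomal SYCP3 peaks in the Iho1KO list, 2095 met this rule and are called Iho1KO-only sites below. The full list held 5380 peaks, of which 71 on X and Y were left out. The selection used measured peak positions, so absence from those 9 lists is a description of how the sites were chosen and not a result. "Only" refers to those 9 lists: 205 of the 2095 sites (9.79%) lay at a peak in at least 1 of the 14 lists that the selection did not use, against 31.8% of all autosomal Iho1KO SYCP3 peaks.

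SYCP3 is a filament-forming protein of the chromosome axis, the rod along which the chromatin loops of each meiotic chromosome are anchored. HORMAD1 is a HORMA-domain protein that loads on unsynapsed axes and recruits IHO1, and IHO1 in turn is needed, with MEI4 and REC114, for SPO11 to make the DNA breaks that start recombination. In mice PRDM9 places those breaks at hotspots away from promoters, and DMC1 coats the single-stranded DNA that forms there. CTCF, with cohesin, holds the bases of chromatin loops. In spermatocytes without PRDM9, breaks form at promoters and other sites of open chromatin instead.

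Binding was mapped by ChIP-seq, which sequences the DNA that an antibody pulls down with its protein, in whole testes of C57BL/6JCrl mice. Male pups were fed WIN 18,466, a blocker of retinoic acid synthesis, from 1.5 days after birth for 7 to 10 days and were then given a single injection of retinoic acid. Testes were taken 8 days after it, when leptotene to zygotene spermatocytes made up 80 to 95% of cells, per the labels. The Iho1KO animals carry Iho1tm1.2Atot, and the other genotypes are wild type, Prdm9KO (B6;129P2-Prdm9tm1Ymat/J), Spo11KO (Spo11tm1Mjn), Mei4KO (Mei4tm1Bdm) and Hormad1KO (Hormad1tm1.2Atot). The synchronising treatment was given to all of them. The SYCP3 groups of Iho1KO, Prdm9KO and Spo11KO have 1 sample each, and those of the wild type, Mei4KO and Hormad1KO have 2, as do the HORMAD1, IHO1, MEI4, CTCF and DMC1 groups used here. Each group has 1 peak list here, so no difference between genotypes has a replicate check. Only peak positions are listed, without strength or depth. Whole testis also holds other cells, and peak positions do not show which cells a peak comes from.

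The 9 lists removed unequal numbers of peaks. At least 1 of the other 5 SYCP3 lists overlapped 2120 of the 5309 peaks, most of them through Spo11KO (1515 peaks) and Mei4KO (945). CTCF overlapped 1298, DMC1 hotspots 876, wild-type HORMAD1 715 and wild-type IHO1 557. The lists differ in length, from 607 SYCP3 peaks in Prdm9KO to 2369 in Spo11KO, and the Iho1KO list is the longest of the 6, so absence from the other lists need not mean absence of the protein. Among the peaks that were removed, 826 overlapped another SYCP3 list but none of the other proteins' lists. These 826 matched shared sites differ from the Iho1KO-only sites in that single criterion and are the main comparison below. The Iho1KO-only sites nearest to an excluding peak were those at Rusc2 (chr4:43381722-43382439, 97 bp from a DMC1 hotspot), Racgap1 (chr15:99651047-99651825, 143 bp from a CTCF peak) and Sema6b (chr17:56139300-56141199, 170 bp from a CTCF peak). Just outside the rule lay peaks that shared 42 bp with a hotspot (chr4:156214942-156236483, at Klhl17, Noc2l, Perm1 and Plekhn1), 78 bp with a Spo11KO SYCP3 peak (chr9:55541709-55543109, at Isl2) and 85 bp with a CTCF peak (chr13:47043026-47044216, at Kdm1b and Tpmt). Over all 2095 sites the median gap to the nearest excluding peak was 9901 bp (quartiles 4396 and 20120), and for 1488 of them that neighbour was a CTCF peak. The CTCF list is the longest of the 9, with 31785 autosomal peaks against 13314 DMC1 hotspots in the next. A CTCF peak is therefore the likeliest neighbour by number alone, and closeness to CTCF was not tested.

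Most of these sites lay at gene starts, with their centres mostly a little inside the gene, and the promoter stretches just before the start are shown for their base composition. The promoters below were chosen by rule from genes of known strand: 5 belong to the widest sites at genes of recombination, germline regulation or the piRNA pathway, and 3 to wide sites or sites found in several other lists. Each is the RefSeq sequence (GRCm38.p6) of the 250 bases before the most upstream start in the site, 5′ to 3′ on the gene's own strand, and each CG dinucleotide is in capitals. Of the 8 stretches, 7 lie within their sites, and that of Pcgf6 runs past its site, which ends at position 47051079. Hfm1 (chr5:106925891-106926140, minus strand) encodes a helicase of the crossover pathway. Tdrd5 (chr1:156303349-156303598, minus strand) and Tdrd7 (chr4:45972047-45972296, plus strand) encode Tudor proteins of the piRNA pathway, which silences transposons in the germline. E2f6 (chr12:16810715-16810964, plus strand) and Pcgf6 (chr19:47050907-47051156, minus strand) encode subunits of a variant Polycomb complex that represses germline genes in other cells. Tmem200b (chr4:131921521-131921770, plus strand) encodes a transmembrane protein. Sema4g (chr19:44989094-44989343, plus strand) encodes a semaphorin. Nt5dc2 (chr14:31130839-31131088, plus strand) encodes a protein with a nucleotidase domain.
Hfm1: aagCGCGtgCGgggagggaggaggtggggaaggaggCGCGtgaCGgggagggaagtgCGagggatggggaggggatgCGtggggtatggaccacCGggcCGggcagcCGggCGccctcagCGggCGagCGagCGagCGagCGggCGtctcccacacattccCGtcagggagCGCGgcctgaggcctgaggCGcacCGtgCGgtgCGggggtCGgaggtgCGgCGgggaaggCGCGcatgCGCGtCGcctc
Tdrd5: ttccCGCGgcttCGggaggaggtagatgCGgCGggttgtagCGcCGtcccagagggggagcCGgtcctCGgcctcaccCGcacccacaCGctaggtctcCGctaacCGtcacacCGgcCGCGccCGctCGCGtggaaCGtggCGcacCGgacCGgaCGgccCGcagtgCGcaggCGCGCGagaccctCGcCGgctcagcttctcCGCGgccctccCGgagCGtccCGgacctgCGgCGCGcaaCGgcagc
Tdrd7: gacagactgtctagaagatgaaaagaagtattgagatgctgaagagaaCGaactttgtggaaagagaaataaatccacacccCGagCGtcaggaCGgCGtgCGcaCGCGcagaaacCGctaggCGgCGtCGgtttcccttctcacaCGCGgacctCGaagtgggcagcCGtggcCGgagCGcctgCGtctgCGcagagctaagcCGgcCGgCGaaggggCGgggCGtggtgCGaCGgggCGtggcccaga
E2f6: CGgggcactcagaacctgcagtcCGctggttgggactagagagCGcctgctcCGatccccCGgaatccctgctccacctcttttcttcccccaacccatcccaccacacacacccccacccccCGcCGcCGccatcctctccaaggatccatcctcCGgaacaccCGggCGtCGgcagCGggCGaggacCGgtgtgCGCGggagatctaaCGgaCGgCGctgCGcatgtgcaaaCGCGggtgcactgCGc
Pcgf6: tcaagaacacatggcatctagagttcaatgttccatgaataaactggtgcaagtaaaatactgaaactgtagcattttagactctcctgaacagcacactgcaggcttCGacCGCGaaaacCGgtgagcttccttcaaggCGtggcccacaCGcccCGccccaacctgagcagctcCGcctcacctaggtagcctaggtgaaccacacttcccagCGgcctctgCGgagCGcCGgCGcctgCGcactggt
Tmem200b: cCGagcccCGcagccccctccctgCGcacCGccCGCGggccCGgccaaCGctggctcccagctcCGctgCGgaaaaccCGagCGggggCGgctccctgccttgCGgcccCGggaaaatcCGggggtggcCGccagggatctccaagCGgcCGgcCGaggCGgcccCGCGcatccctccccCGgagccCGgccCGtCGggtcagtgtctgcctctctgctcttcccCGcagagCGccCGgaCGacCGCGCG
Sema4g: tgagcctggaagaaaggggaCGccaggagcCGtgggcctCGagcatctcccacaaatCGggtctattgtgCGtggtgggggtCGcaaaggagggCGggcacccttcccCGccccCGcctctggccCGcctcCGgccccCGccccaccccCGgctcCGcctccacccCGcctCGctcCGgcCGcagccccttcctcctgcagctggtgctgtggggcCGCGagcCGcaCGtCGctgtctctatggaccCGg
Nt5dc2: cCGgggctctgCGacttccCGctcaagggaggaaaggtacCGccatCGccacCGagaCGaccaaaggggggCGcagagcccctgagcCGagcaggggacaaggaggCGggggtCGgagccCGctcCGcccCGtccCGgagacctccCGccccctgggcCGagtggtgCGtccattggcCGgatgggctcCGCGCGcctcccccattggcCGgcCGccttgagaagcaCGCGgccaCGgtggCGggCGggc

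These 8 stretches held between 14 CG dinucleotides (Pcgf6) and 40 (Tdrd5), and their GC content ran from 56.0% (Pcgf6) to 78.4% (Tmem200b). In Tdrd5 and Hfm1 the CGs run through most of the 250 bases. In Pcgf6 and Tdrd7 they are denser in the later part, nearer the start.

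Most Iho1KO-only sites lay at gene starts. A protein-coding gene start lay within 1 kb of 1743 of the 2095 sites (83.2%, Wilson 95% interval 81.5 to 84.7), against 69.4% of all autosomal Iho1KO SYCP3 peaks. Without the margin the start itself lay inside 77.4% of the sites. Of the 352 other sites, 58 lay at another annotated gene, 177 in the body of a protein-coding gene and 117 between genes. Those 58 included 36 at a long non-coding RNA and 13 at a pseudogene. Another, picked out after its position was seen, was the 862 bp site at Terc (chr3:96414212-96415073), the RNA template of telomerase. The matched shared sites were at gene starts in 650 of 826 cases (78.7%, 75.8 to 81.3). The difference, 4.51 points (Newcombe 95% interval 1.37 to 7.81), excluded 0, but with the start required inside the peak it was 2.92 points (-0.478 to 6.46), and with a 5 kb margin 2.61 points (-0.145 to 5.57). The gap to all 3214 other autosomal peaks, which include the matched shared sites, was wider: 60.5% of those were at gene starts, a difference of 22.7 points (20.4 to 25.04). Those 3214 peaks include the ones at hotspots and CTCF peaks, so how much of this difference the selection sets cannot be told apart.

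**Figure D1:**
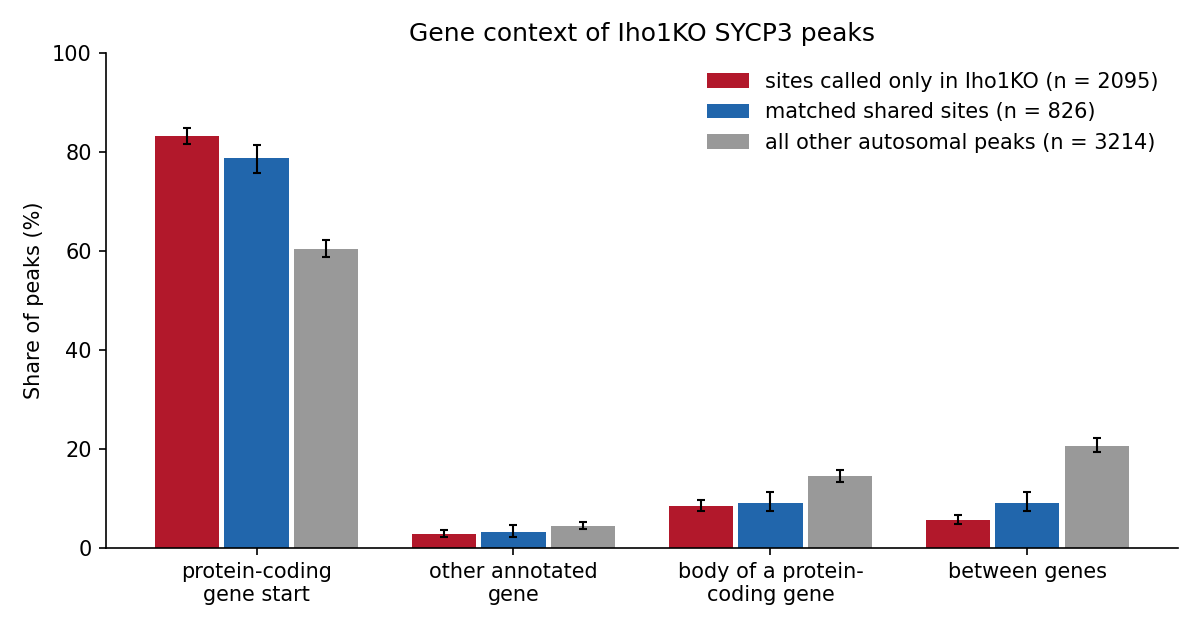
Share of Iho1KO SYCP3 peaks (percent, from 0) in 4 gene contexts, for the 2095 sites called only in Iho1KO, the 826 matched shared sites and all 3214 other autosomal peaks; lines are Wilson 95% intervals, which cover counting error only. The sites called only in Iho1KO stand at 83.2% at gene starts and 5.58% between genes, against 60.5% and 20.6% for the other peaks.

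The sites lay at gene starts more often than at the opposite gene ends. Strand is given for 16457 of 20665 autosomal protein-coding genes and for none of the 511 on chromosome 18, so the results that need strand (opposite ends, offsets, CpG and motifs) leave that chromosome out. For those genes, 1468 sites (70.1%) lay within 1 kb of a start and 152 (7.26%, 6.22 to 8.45) within 1 kb of the opposite end of a gene. The 16457 genes had 20085 starts but a single opposite end each, so the comparison is not even. Starts also outnumbered opposite ends elsewhere in the list. Of the matched shared sites 64.4% lay at a start, and of all other autosomal peaks 48.6% at a start and 10.7% at an opposite end. Of the matched shared sites 12.1% lay at an opposite end, a difference of -4.85 points (-7.47 to -2.48). When each peak was reduced to a 1 kb window it was -1.49 points (-3.70 to 0.456). Distances to the nearest start were taken over all autosomes, with either end counted for genes without strand. The median from a site's centre was 251 bp, against 253.5 bp for the matched shared sites and 447 bp for all other autosomal peaks. A distance over 10 kb was found for 211 of 2095 sites (10.1%), against 13.0% and 27.3%.

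The centres were not placed evenly about the start. Among the 1446 sites with a centre within 1 kb of a stranded start, the median centre lay 171.5 bp inside the gene (quartiles 45.3 and 294 bp). The centre was on the gene side of the start in 1181 of 1446 sites (81.7%, 79.6 to 83.6) and within 250 bp of it in 914 (63.2%). The matched shared sites had a median of 139 bp and 79.0% on the gene side (75.2 to 82.2), and the intervals of the classes overlap. Most centres in both classes sat just downstream of the start.

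**Figure D2:**
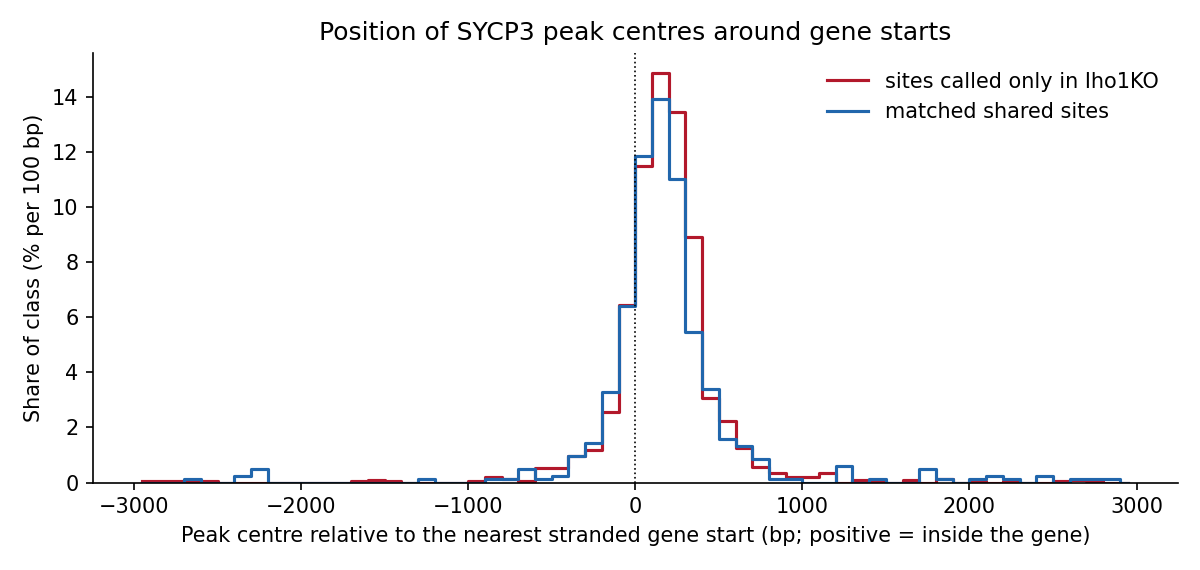
Position of peak centres relative to the nearest gene start with known strand, in bp (horizontal axis; positive values lie inside the gene), as the percent of each class per 100 bp bin (vertical axis), for the sites called only in Iho1KO and for the matched shared sites. Both curves rise on the gene side of the start, with medians of 171.5 and 139 bp among centres within 1 kb.

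The 1743 sites at starts touched 1901 protein-coding genes, which is 9.2% of the 20665 autosomal ones. Any Iho1KO SYCP3 peak lay at the start of 4039 genes (19.5%), and a wild-type SYCP3 peak at 171 (0.827%). Of the 1901 genes, 12 also had another Iho1KO SYCP3 peak at a start. A gene needs 2 separate peaks of the same list near its starts to be counted there. How often any gene has 2 such peaks was not counted, so the low number does not show a separate set of genes. Of the sites, 161 (7.68%, 6.62 to 8.90) lay at the starts of 2 or more genes, against 7.27% of all autosomal peaks in the list and 9.69% (7.85 to 11.9) of the matched shared sites. Of these 161 sites, 106 held starts on both strands, 5 held starts on 1 strand only, and for 50 a strand was missing. Among peaks at 2 or more starts, both strands were held by 56 of 80 matched shared sites and 157 of 225 other autosomal peaks. Starts on both strands were thus not particular to the Iho1KO-only sites. Among those sites, Gen1, a Holliday junction resolvase, and Smc6, a subunit of the SMC5/6 complex, are a pair on opposite strands. At 4 sites 3 genes were counted. For genes without strand either end counts, which holds for Arhgap39, C030006K11Rik, Lrrc24 and Derpc among these, and Arhgap39 had another Iho1KO-only site at its other end. The 4 sites were at Arhgap39, C030006K11Rik and Lrrc24 (chr15:76719556-76723821), at LOC115486880, Psme3ip1 and Rspry1 (chr8:94600575-94602280), at Chtf8, Derpc and Utp4 (chr8:106893077-106893881), and at Atf5, Il4i1b and Nup62 (chr7:44816142-44816929).

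Sites were spread over every autosome. Chromosome 11 had the most, 206, and chromosome 18 the fewest, 50. The same chromosomes had the most and the fewest autosomal peaks of the whole Iho1KO SYCP3 list, 465 and 133. Iho1KO-only sites made up 44.3% and 37.6% of those peaks, so the ranking follows that of the list. On chromosome 18, where either end of a gene counted as its start, 64.0% of the sites were at one, the lowest share of any autosome. The share of a chromosome's protein-coding genes with an Iho1KO-only site at the start ran from 5.81% on chromosome 7 to 12.2% on chromosome 12. Neighbouring sites lay a median of 308.4 kb apart, and 60 of 2076 neighbouring pairs were under 10 kb apart. Spacing was not measured for other SYCP3 peaks.

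The meiotic genes among these targets were few. In the list of break machinery and recombination genes, 4 of 37 (10.8%) had an Iho1KO-only site, near the background of 9.2% of all genes. They were Hfm1 (chr5:106925567-106927040), Tex15 (chr8:33516625-33517758), Dmc1 (chr15:79604482-79605217) and Brca2 (chr5:150522478-150523095). Tex15 and Brca2 act in loading the recombinases, and Dmc1 is the meiotic recombinase itself. Of the germline and meiotic entry regulators 3 of 26 had a site: E2f6, Pcgf6 and Tcfl5, a transcription factor of spermatocytes. Of the piRNA genes 2 of 25 did, Tdrd5 and Tdrd7. Any Iho1KO SYCP3 peak lay at 12 of the 26 regulators (46.2%), against 19.5% of all genes. Such a peak lay at 10 of the 37 recombination genes (27.0%) and 6 of the 25 piRNA genes (24.0%). None of 24 genes of the chromosome axis, meiotic cohesin and synapsis had an Iho1KO-only site (a count of 0 allows up to 12.5%), although 9 of the 24 had some Iho1KO SYCP3 peak, which then also overlapped an excluding list. Strand is not given for Tex15, so its site lay at an end of the gene that may not be the start.

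Larger shares were counted in some lists of genes used in most cells. Of 63 spliceosome and snRNP genes 15 (23.8%) had an Iho1KO-only site, against 9.2% of all genes, and 29 had any Iho1KO SYCP3 peak (46.0%, against 19.5%). Examples were Srsf2 (chr11:116852114-116853622), Srsf4, Srsf6 and Srsf10, which encode SR splicing factors, and Snrpf, an Sm core protein. Of 53 translation initiation factor genes 10 had a site (18.9%), among them Eif3j1, Eif5a, Eif5, Eif3a and Eif4h. The list of somatic cohesin and its loaders, with condensins and SMC5/6, had 5 of 24 (20.8%): Smc6, Pds5a, Stag1, Pds5b and Ncapg2. Of 50 mitotic cell cycle genes 7 did (14.0%), among them Ccne1, E2f1, Rb1, Rbl2 and E2f4 (an end of the gene for Rb1 and E2f4), which encode cyclin E1 and members of the E2F and retinoblastoma families that control S phase entry. The counts were 4 of 45 for the DNA damage response (Atr, Lig4, Topbp1 and Hus1), 8 of 78 for mitochondrial ribosomal proteins (for example Mrps26, Mrps6 and Mrps24), 5 of 77 for cytosolic ribosomal proteins (for example Rps6, Rps19 and Rpl14) and 1 of 38 for the proteasome (Psma7), which are near or below the background. Histone genes had 6 of 73, among them H3f3a, H2az2 and H1f10, which encodes a linker histone. The site at chr13:23682973-23684270 lay at H2ac6 and at an end of H2bc4. Any Iho1KO SYCP3 peak lay at 37 of the 73. Such a peak also lay at 22 of the 53 initiation factor genes (41.5%) and 10 of the 24 in the cohesin list (41.7%). The 46.0% of spliceosome genes with any such peak is close to the 46.2% of germline and meiotic entry regulators. These lists were chosen with earlier results known and are given as counts, with no test, so no list is shown to differ from the rest.

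Lists of other cells and stages were mostly too short to tell from the background of 9.2%. Of 30 spermatid genes 1 had an Iho1KO-only site (3.33%), Zpbp, which encodes an acrosomal protein. None of 16 spermatogonia markers did, which allows up to 18.75%, and 3 of them had some Iho1KO SYCP3 peak, a share close to the 19.5% of all genes. None of 17 markers of Sertoli, Leydig and peritubular cells did, which allows up to 17.6%, and 1 had some Iho1KO SYCP3 peak. None of the 1104 olfactory receptor genes, the odorant sensors of the nose, had any Iho1KO SYCP3 peak. For that family a count of 0 allows a share of up to 0.272%.

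The promoters at Iho1KO-only sites were rich in GC and CpG. The 1848 stranded starts at Iho1KO-only sites had a median GC content of 67.7% (quartiles 61.3 and 73.0) in the 300 bases around the start, against 57.0% (48.7 and 65.0) for all 20085 autosomal protein-coding starts in the RefSeq table. The observed over expected CpG ratio, which is near 1 where CpG has not been lost by methylation and decay, had a median of 0.878 (0.740 and 0.993) against 0.586 (0.234 and 0.834). Starts without any Iho1KO SYCP3 peak had a median of 0.452. The 674 starts at matched shared sites were close to the Iho1KO-only ones, at 0.861 and 65.0% GC. When all starts were divided into 4 equal classes by this ratio, Iho1KO-only sites lay at 0.637% of starts in the lowest class (0.452 to 0.898), 2.95% in the second, 11.6% in the third and 21.6% (20.5 to 22.8) in the highest. The share with any Iho1KO SYCP3 peak ran from 1.35% to 44.1% over the same classes. The CpG-rich highest class held 58.8% of all starts at Iho1KO-only sites. Several starts can share a promoter, so these intervals treat as independent what in part is not.

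**Figure D3:**
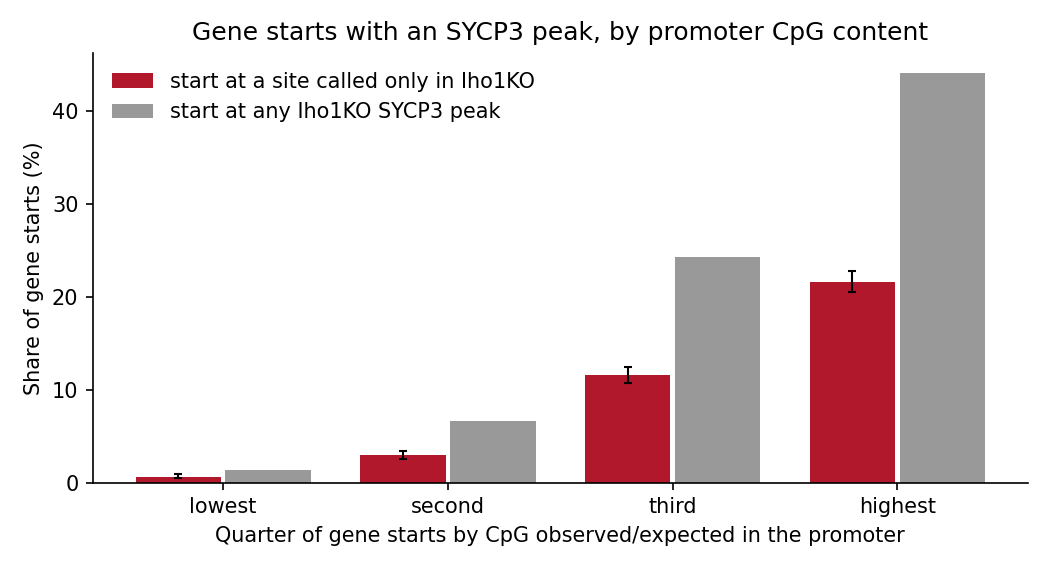
Share of autosomal protein-coding gene starts (percent, from 0) with an SYCP3 site called only in Iho1KO (red, with Wilson 95% intervals) or with any Iho1KO SYCP3 peak (grey), in 4 equal classes of starts by observed over expected CpG in the promoter. Both shares rise with each class, from 0.637% to 21.6% and from 1.35% to 44.1%.

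Short motifs were counted in the same 300 bases on both strands. GGGCGG, the box bound by SP and KLF factors, was found in 79.4% of starts at Iho1KO-only sites and 47.0% of all starts. TATAAA was found in 5.25% against 12.7%, and CAACTG, a MYB-type word, in 7.85% against 12.04%. TGCGCA (NRF1) was found in 15.5% against 9.81%, CCGGAA (ETS) in 27.4% against 19.1%, TGACGT (CREB/ATF) in 10.8% against 8.59%, TTCCCGC (E2F) in 9.25% against 6.05%, CACGTG (E-box) in 11.04% against 7.89% and TCGCGA, with no factor named, in 6.44% against 3.29%. CNCCTCAG, a word bound by STRA8, was found in 10.1% against 8.57%, AAGATGG (YY1) in 6.82% against 6.29% and CCAAT (NF-Y) in 33.4% against 38.1%. The matched shared sites had higher shares than the Iho1KO-only sites for TGCGCA (20.03%), CCGGAA (33.5%), TGACGT (13.9%), TTCCCGC (12.6%), CACGTG (12.5%) and TCGCGA (7.72%), so a share above that of all starts was not particular to the Iho1KO-only sites for these words. For GGGCGG the matched share was 73.6%. For TATAAA it was 6.23% and for CAACTG 6.08%, so a share below that of all starts was not particular to the Iho1KO-only sites either. Base composition moves with these counts, and its part in them was not tested beyond a split by CpG class. Within the highest CpG class, GGGCGG was found in 85.5% of 1087 starts at Iho1KO-only sites and in 74.4% of 2808 starts without an Iho1KO SYCP3 peak, whereas TGCGCA was found in 19.2% and 19.6%, and CCGGAA in 29.5% and 33.6%. In that class TATAAA was found in 4.23% and 5.27% of these starts, and CAACTG in 5.89% and 7.16%. Among the promoters printed above, the 300 bases of Hfm1, Tdrd7, Pcgf6, Tmem200b, Sema4g and Nt5dc2 hold GGGCGG on either strand. A match is a run of letters and not a shown binding site.

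The sites were narrow. Their median width was 1116 bp (quartiles 896 and 1439, range 359 to 15337), against 1288 bp for the matched shared sites and 1273.5 bp for all other autosomal peaks. A width over 5 kb was found for 20 of 2095 sites (0.955%) and for 35 of 826 matched shared sites (4.24%). A wide peak is more likely to touch another list, so width is tied to the selection and was not tested. Sites at gene starts had a median of 1099 bp and the 352 others 1247.5 bp, and 16 of the 20 sites over 5 kb were among these 352. The matched shared sites were split likewise, with medians of 1204.5 bp at starts and 1721.5 bp elsewhere. Of their 35 peaks over 5 kb, 24 lay away from starts.

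**Figure D4:**
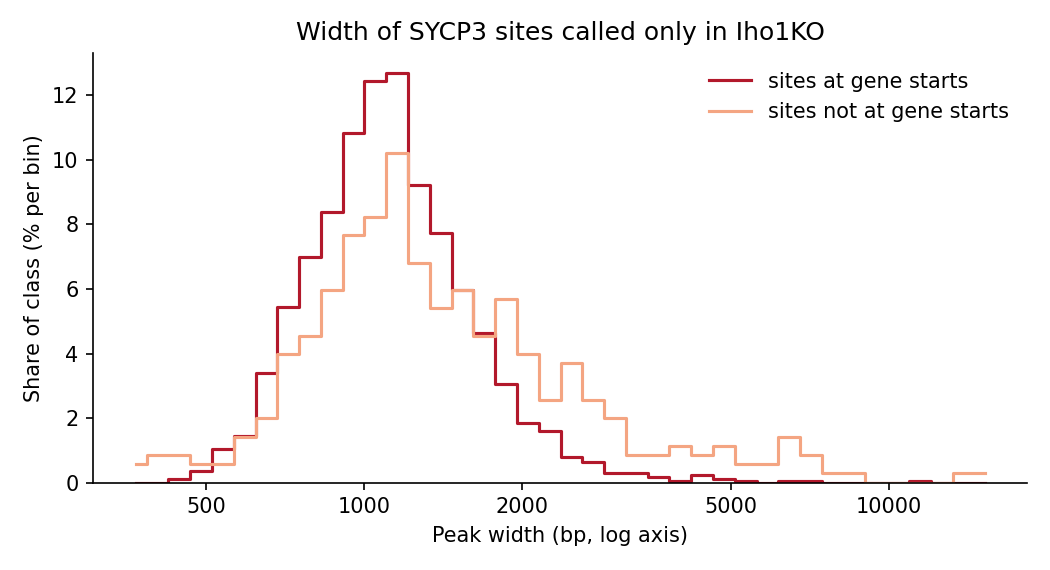
Distribution of peak width (bp, log axis) of the sites called only in Iho1KO, as the percent of each class per bin, for the 1743 at gene starts and the 352 elsewhere. The medians are 1099 and 1247.5 bp, and the sites elsewhere have the longer tail, up to 15337 bp.

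The widest sites were mostly away from starts. The 15337 bp site at chr12:83776059-83791395 reached into Papln and lay 20093 bp from the nearest start, and the 13667 bp site at chr4:109055751-109069417 overlapped Nrd1 and Osbpl9. The next were the 11000 bp site over Tmem200b (chr4:131911863-131922862), the 8459 bp site in Pccb (chr9:100977743-100986201), the 7469 bp site in Stard9 (chr2:120702290-120709758) and the 7410 bp site in Sbf2 (chr7:110300758-110308167). A 7392 bp site lay between genes (chr7:98569870-98577261, nearest start Lrrc32). The others of the 10 widest lay in Myo15b (chr11:115883005-115890106), at Sema4g and Slf2 (chr19:44984368-44991277) and in Slc5a10 (chr11:61710326-61717077). Of these 10, 2 held a gene start within 1 kb, against 83.2% of all Iho1KO-only sites, and 6 overlapped a HORMAD1 peak of a knockout, against 8.93%. A wide peak has more room for any overlap. The 3 narrowest sites, of 359, 384 and 404 bp, lay in Lars2, in Jarid2 and between genes, all over 10 kb from a start.

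HORMAD1 was seldom called at these sites, in any of the 4 knockouts. In Iho1KO itself, the genotype of the SYCP3 list, 78 sites (3.72%, 2.99 to 4.62) overlapped a HORMAD1 peak, against 18.3% of all autosomal peaks of the SYCP3 list. In Mei4KO, which has the longest HORMAD1 list with 5275 peaks, it was 125 sites (5.97%, 5.03 to 7.06; 16.2% of all peaks). In Spo11KO it was 41 (1.96%, 1.45 to 2.64; 17.7%) and in Prdm9KO 12 (0.573%, 0.328 to 0.999; 11.1%). The shares of all peaks include peaks removed for overlapping wild-type HORMAD1, so they are not an even comparison. The matched shared sites are not wholly even either. They were chosen for an SYCP3 peak in another genotype, Mei4KO, Spo11KO and Prdm9KO among them. How much of the differences in HORMAD1 that choice sets cannot be told apart. Against the matched shared sites, which also lack wild-type HORMAD1, the differences were -6.45 points in Iho1KO (-8.81 to -4.36), -7.71 in Mei4KO (-10.4 to -5.28), -6.88 in Spo11KO (-9.07 to -5.00) and -4.88 in Prdm9KO (-6.66 to -3.46), each with an interval below 0. Peaks at gene starts alone gave smaller differences of the same sign: -2.33 points in Iho1KO (-4.10 to -1.01), -5.06 in Mei4KO, -2.31 in Spo11KO and -1.60 in Prdm9KO (-3.01 to -0.668). Peaks away from starts gave larger ones: -18.5 points in Iho1KO (-26.5 to -10.6), -14.5 in Mei4KO, -21.9 in Spo11KO and -16.8 in Prdm9KO (-23.2 to -11.4). Seen from the HORMAD1 lists, 77 of 3098 autosomal peaks in Iho1KO (2.49%) and 122 of 5193 in Mei4KO (2.35%) lay at an Iho1KO-only SYCP3 site.

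Where a HORMAD1 peak of a knockout overlapped a site, it typically covered most of the site. The SYCP3 sites are from Iho1KO, so only the 78 overlaps with HORMAD1 in Iho1KO are within 1 genotype. The others compare positions between different genotypes. The 187 sites with HORMAD1 in at least 1 knockout were 8.93% of the 2095 (28.9% of all autosomal peaks). Of these, 133 were in 1 HORMAD1 list, 40 in 2, 13 in 3 and 1 in all 4. Mei4KO alone accounted for 92 of them and Iho1KO alone for 29. The HORMAD1 peak covered a median of 100% of the site in Iho1KO and Mei4KO, 97.6% in Spo11KO and 88.7% in Prdm9KO. A wide HORMAD1 peak covers more of a site, and the median width of these lists ran from 1599 bp in Iho1KO to 2580 bp in Mei4KO. Cover was not measured for other SYCP3 peaks. Sites with HORMAD1 were wider (median 1613 bp against 1096.5 bp for the 1908 without), and 80 of 187 (42.8%, 35.9 to 49.9) lay at gene starts against 1663 of 1908 (87.2%, 85.6 to 88.6).

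HORMAD1 was called more often at the sites away from gene starts than at those on them. HORMAD1 of any knockout was called at 107 of the 352 sites away from starts (30.4%, 25.8 to 35.4) and at 80 of the 1743 at starts (4.59%, 3.70 to 5.68), a difference of 25.8 points (21.1 to 30.9). With a 1 kb window at each centre, which gives all sites the same width, the difference was 26.0 points (21.3 to 31.1). The matched shared sites showed both shares at a higher level, 60.8% of 176 away from starts and 11.8% of 650 at starts. Gene starts made up 62 of the 125 sites with HORMAD1 in Mei4KO (49.6%), 21 of 78 in Iho1KO (26.9%), 8 of 41 in Spo11KO (19.5%) and 7 of 12 in Prdm9KO (58.3%). When the sites were divided into 4 classes by width, HORMAD1 was called at 4.36% of the narrowest (359 to 896 bp) and 20.04% of the widest (1440 bp and above).

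**Figure D5:**
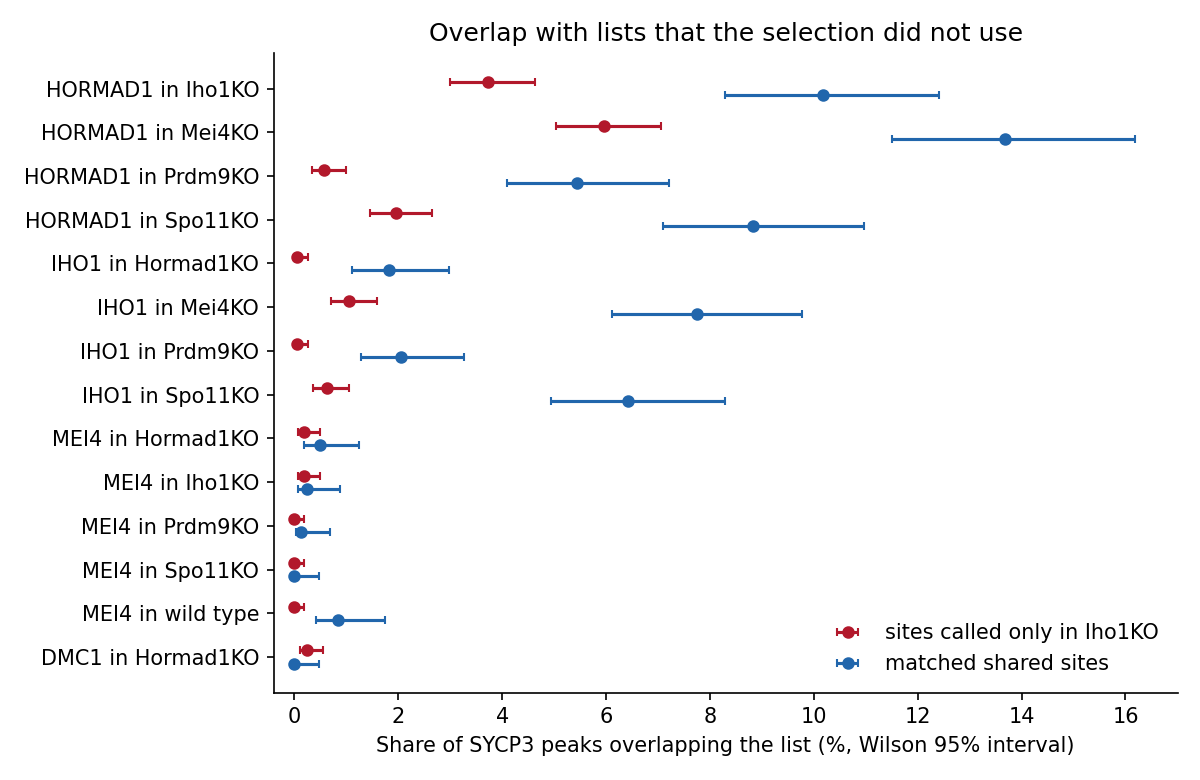
Share of SYCP3 peaks (percent, horizontal axis) that overlap by at least 1 bp each of the 14 lists not used in the selection, for the 2095 sites called only in Iho1KO and the 826 matched shared sites; points are shares and lines are Wilson 95% intervals, which cover counting error only. In the 4 HORMAD1 and 4 IHO1 lists the sites called only in Iho1KO lie lower, for example 3.72% against 10.2% for HORMAD1 in Iho1KO. The matched shared sites were chosen for an SYCP3 peak in another genotype. The part of that choice in these differences cannot be told apart.

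IHO1, MEI4 and DMC1 were rarely called at these sites. An IHO1 peak of any of 4 knockouts lay at 33 sites (1.58%, 1.12 to 2.20), against 18.3% of all autosomal peaks and 14.0% of the matched shared sites (difference -12.5 points, -15.0 to -10.2). All autosomal peaks include those removed for wild-type IHO1. The SYCP3 lists of the same 4 knockouts were used to separate Iho1KO-only from matched shared sites. How much of the IHO1 difference that sets cannot be told apart. By list, 22 sites had IHO1 in Mei4KO (11.5% of all autosomal peaks), 13 in Spo11KO (11%), 1 in Prdm9KO (5.22%) and 1 in Hormad1KO (2.92%). Any of 5 MEI4 lists, the wild type among them, overlapped 5 sites (0.239%, 0.102 to 0.557), against 4.9% of all peaks. There were 4 sites with MEI4 in Iho1KO (2.64% of all peaks) and 4 in Hormad1KO (3.3%). No site lay at a MEI4 peak of the wild type (3.01%), Spo11KO (2.71%) or Prdm9KO (1.07%), and a count of 0 in 2095 allows a share of up to 0.143%. A DMC1 hotspot of Hormad1KO lay at 5 sites (0.239%), against 3.15% of all peaks. The matched shared sites were as sparse in several of these lists: MEI4 of Iho1KO lay at 2 of 826 (0.242%), MEI4 of Hormad1KO at 4 (0.484%) and the Hormad1KO hotspots at 0, which allows up to 0.363%. These counts do not show the Iho1KO-only sites to be lower for MEI4 of either knockout or for those hotspots. Wild-type MEI4 was called more often at the matched shared sites, at 7 of 826 (0.847%, 0.411 to 1.74). Any MEI4 list overlapped 11 of them (1.33%, 0.745 to 2.37). These MEI4 differences were not tested. Since sites at wild-type DMC1 hotspots were removed, few hotspot proteins could be found here by construction.

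The few sites with hotspot proteins can be named, though they were picked out for that overlap. Those with MEI4 in both Iho1KO and Hormad1KO were at Rgs19 (chr2:181693159-181694471), Zfand4 (chr6:116263934-116264794) and Snrpa1 (chr7:66060398-66060899). The site at Atp5g3 (chr2:73910665-73911502) had MEI4 and IHO1 in Hormad1KO, and that in Casq1 (chr1:172211699-172212764) had MEI4 in Iho1KO and DMC1 in Hormad1KO. The other 4 sites at Hormad1KO hotspots were at Suz12 (chr11:79992623-79993948), Khsrp (chr17:57030710-57031635), an end of Tmem266 (chr9:55326021-55327359) and Zfp445 (chr9:122865473-122866351). Suz12 encodes a core subunit of Polycomb repressive complex 2. Several lay close to the edge of the rule: the Snrpa1 site was 201 bp, the Tmem266 site 181 bp and the Khsrp site 476 bp from a wild-type hotspot.

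The sites present in the largest number of unused lists were of the HORMAD1 and IHO1 kind. The site at chr11:57934066-57936811, 73626 bp from the nearest start (Larp1), was in 6 of the 14 lists: all 4 HORMAD1 knockouts and IHO1 in Mei4KO and Spo11KO. A 716 bp site in Gdpd5 (chr7:99450527-99451242) was in 5. The sites at chr14:75885544-75888124, at Ago2 (chr15:73183884-73185804) and at chr16:43723771-43724880 were in 4 each. Ago2 encodes the slicing Argonaute of small RNA silencing, and its site, centred 103 bp from an end of the gene, had HORMAD1 in Iho1KO, Spo11KO and Prdm9KO. The others of the first 10 were in 3 lists each, at Tmem200b, at Nt5dc2 and Smim4 (chr14:31128178-31132845), at Doc2b (chr11:75768844-75773223), near L3mbtl2 (chr15:81654503-81658492) and near Tmod3 (chr9:75492464-75496241). Of these 10 sites, 4 lay at a gene start, with Ago2 and Doc2b counted at either end because strand is missing. None had MEI4 or DMC1.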

How the data were processed

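The authors deposited 1 peak list per group as start and end positions; build mm10 (GRCm38) and the tools Bowtie2 and MACS2 are named in the submitters' processing notes without roles or versions. Per the design text, each protein's own knockout was subtracted. Whether replicates were pooled is not given in the sources used here, and depth is unknown for every list. Of 36 groups (65 samples), 24 lists were analysed.

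Peaks were compared by position with Python 3.11.15, pandas 2.3.3, NumPy 2.4.6 and SciPy 1.17.1; an overlap of 1 bp counted. Start sites came from RefSeq promoters (GRCm38.p6), which give strand for 79.6% of 20665 autosomal protein-coding genes; for the other 4208, all of chromosome 18 among them, either end was used, so some of those are gene ends. The margin was 1 kb. Shares have Wilson and differences Newcombe 95% intervals, called where they exclude 0; there are no p-values. Intervals and the limits at a count of 0 (3 counts) treat sites as independent and cover counting error only. Overlap, start and interval code was tested on simulated data. The members and lists were chosen with earlier results of these data known. Sites were named by rule: the 10 widest and 3 narrowest, the 10 in most unused lists, meiotic list genes, up to 5 genes of each other list by width, the 3 nearest each side of the rule, and sites with 3 or more starts; exceptions are marked in the text, and some genes that the rule names are not reported here. The comparison of sites at and away from starts, and the IHO1 and opposite-end comparisons, were added after the data were seen.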

Additional observations from a re-analysis of the deposited data

How the results depend on the processing

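No paired analysis was possible because each group has 1 peak list, and for the same reason no replicate could be left out. The share of Iho1KO-only sites at gene starts (83.2%) moved to 77.4% with no margin, 87.1% with a 5 kb margin, 86.0% with all annotated genes, 79.7% in the wider 50% of sites and, in alternatives added after the data were seen, 70.1% with stranded genes only and 79.3% with either end of every gene. Its difference from matched shared sites lost its call with no margin (2.92 points), with a 5 kb margin (2.61) and with either end of every gene (0.349), and was called under the other 5 alternatives, at 4.13 to 9.76 points. The difference at opposite gene ends lost its call with the 1 kb centre window (-1.49). The share at 2 or more starts moved to 14.1% with the 5 kb margin, 20.7% with all annotated genes and 5.35% with stranded genes only. All 4 HORMAD1 differences, the IHO1 difference, the difference between sites away from and at starts, and the difference in gene starts from all other peaks kept direction and call under every alternative run. How much of the HORMAD1 and IHO1 differences the selection sets cannot be told apart. A 50% overlap for exclusion left 2134 sites, and a gap of at least 5 kb left 1495. That gap was asked of the Iho1KO-only sites alone. In their differences from other peaks it therefore set a filtered class against an unfiltered one. Peak strength and depth are unknown, so a site absent from a list may lie below that list's threshold.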
